A study of Anser cygnoides with 6 samples.

Results

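Ion channel genes were followed through the differentiation of Shitou goose myoblasts, the cells that build skeletal muscle. The members were the rows of the gene table whose symbol begins as those of potassium (KCN), calcium (CACN), sodium (SCN), chloride (CLCN), TRP, HCN, anoctamin (ANO), P2X receptor (P2RX), PIEZO and nicotinic acetylcholine receptor (CHRN) genes do. There were 148 such rows among 14283 genes, and the rule reads symbols and no measured value. In 5 of these rows the authors' assembly joined a channel gene with a neighbor (KCNJ11 with PIK3C2A, CLCN4 with WWC3, P2RX5 with TAX1BP3, CACNG5 with PRKCA, and CHRND with CHRNG), so that the FPKM of these rows cannot be assigned to either gene. TRPC4AP, a protein that binds a TRP channel and is no channel itself, also fits the rule, whereas TRPM6, KCNRG and TRPV1 stand second in joined rows and were not members.

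Wild-type primary myoblasts from the leg muscle of goose embryos were mixed, enriched by serial plating against fibroblasts and divided into 6 cultures. The 3 proliferating cultures (GM) were kept in DMEM with 15% fetal bovine serum and antibiotics. The 3 differentiating cultures (DM) were switched to 2% horse serum, which starts fusion into myotubes, for 2 to 4 days according to the labels. The study's methods give a single time within that range, 3 days. Each culture gave 1 library of RNA depleted of ribosomal RNA, and p-values measure the spread between these libraries. The study's methods describe cultures divided from a mixed pool but elsewhere speak of data from separate geese, so whether the spread includes that between birds is not settled. The deposited unit is FPKM, which scales mapped fragments to the length of the gene model and the size of the library and in which 0.0001 stands for 0, and the tables hold FPKM without the counts of fragments behind them. Values are given in the order GM_1, GM_2, GM_3 and DM_1, DM_2, DM_3.

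Ion channels set the membrane potential and let calcium, the trigger of contraction, into the cytoplasm. In human myoblasts, inward rectifier potassium channels hyperpolarize the membrane before fusion, and calcium entry through voltage-gated and TRP channels feeds the program of differentiation. In a mature fiber, acetylcholine opens nicotinic receptors at the junction with the nerve, voltage-gated sodium channels carry the action potential, chloride channels steady it, and the calcium channel of the T-tubule couples it to the calcium store.

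Channel genes lay low. The median level of the 148 members, as the mean of the 6 libraries, was 0.298 FPKM, against 3.10 FPKM for all genes. Of the members, 48 had a mean under 0.1 FPKM, 47 reached 1 FPKM and 17 reached 5 FPKM. The highest were ANO6, PIEZO1, CLCN7, CACNG1, KCNE4, CLCN6, TRPC4AP and TRPC1, all with means above 10 FPKM. KCNG4, KCNK18, CACNG2, ANO2 and CHRNA6 were listed at 0.0001 FPKM in every library. Together the members held between 0.153% and 0.160% of the summed FPKM of a GM library and between 0.138% and 0.159% of that of a DM library.

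**Figure D1:**
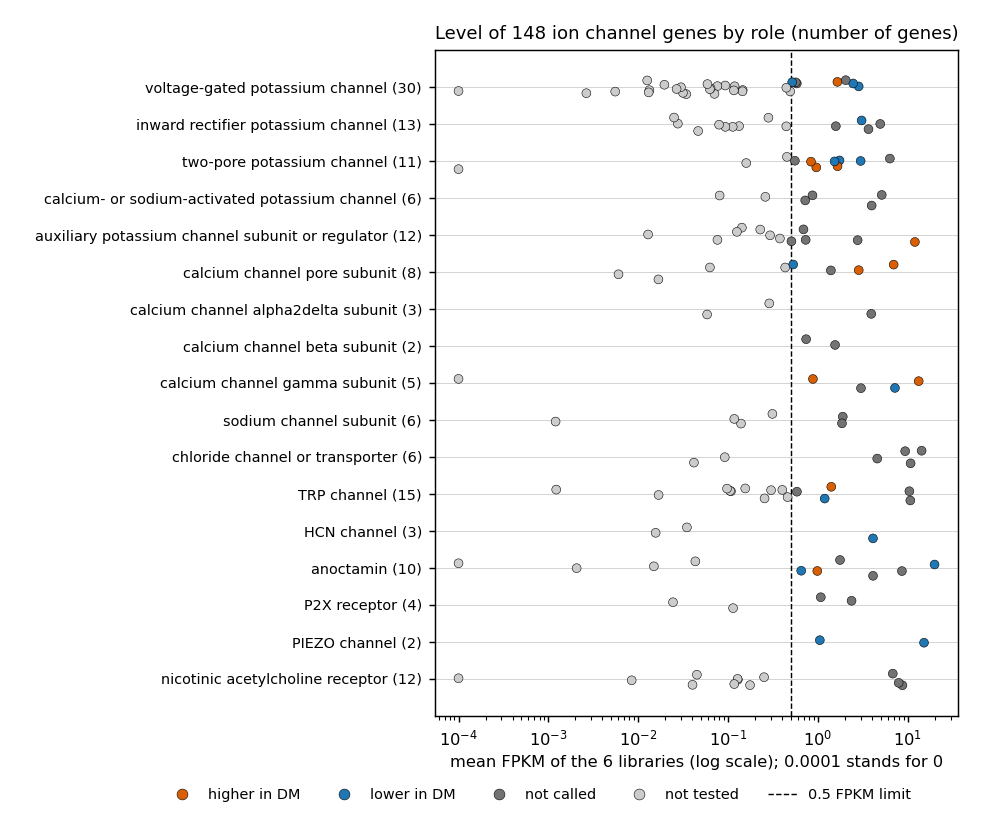
Mean FPKM of the 6 libraries (log axis) for the 148 ion channel genes, each a point in the row of its role, with the number of genes of the role in parentheses. Colors give the limma call at an adjusted p under 0.05, and the dashed line is the limit of 0.5 FPKM for testing. 64 genes lie to the right of the line and 84 to the left, and the highest is ANO6 at 19.9 FPKM.

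Stages were compared with limma on log2(FPKM + 1) over the 10381 genes whose mean reached 0.5 FPKM, and 64 of the 148 members (43.2%) passed this limit, compared with 72.7% of all genes. The fold changes below are differences of log2(FPKM + 1), which understate the change of genes near 1 FPKM. A gene was called at a Benjamini-Hochberg adjusted p under 0.05 over all tested genes, and it was counted as a DEG when its log2 fold change (DM over GM) also exceeded 1 in either direction. Of the 64 tested members, 26 (40.6%) were called, 11 higher in DM and 15 lower in DM, where 30.3% of all tested genes were called, 14.7% higher and 15.5% lower. Their median log2 fold change was -0.07, and that of all tested genes was -0.03. CACNG3 alone was a DEG, and 4.02% of all tested genes were DEGs. Because 1 is added to values that are often near 1, the DEG count depends on the pseudocount, and with 0.1 in place of 1, 9 of 64 members (14.1%) were DEGs (KCNC2, KCNG2, KCNK2, KCNK15, KCNK17, CACNG1, CACNG3, TRPA1 and TRPC4), where 7.8% of all tested genes were. The share of DEGs among members was thus below that of all genes with the constant of 1 and above it with 0.1.

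The counts were lower in each fit with 1 library left out. These fits also have fewer samples, and the part of the smaller sample in the drop was not tested. Without GM_1 14 members were called, without GM_2 or GM_3 12, and without DM_2 17, while the count over all genes fell to 2067, 2006, 2060 and 1970, from 3143. The share of called members did not exceed that of all genes when GM_2 or GM_3 was left out. Without GM_2 19.4% of tested members and 19.4% of all tested genes were called, and without GM_3 19.7% and 19.9%. The shares were 22.6% and 19.9% without GM_1, and 25.8% and 18.9% without DM_2. They were 35.4% and 29.6% without DM_1, and 32.8% and 25.1% without DM_3. With no limit on the level the shares were 23.0% of 148 members and 23.7% of all genes. Only 43.2% of members but 72.7% of all genes had passed the limit, so these 2 shares are over sets with unlike parts of low genes. Of the 26 called members, 11 kept the call and the direction in every alternative that tested them (KCNC2, KCNG2, KCNK2, KCNK12, KCNK17, KCNE4, CACNG1, CACNG3, TRPA1, TRPC4 and PIEZO1). These 11 were also those with the smallest adjusted p-values of the 26 with all libraries. The alternatives refit the same libraries, so a kept call is no separate support for a change. The other 15 lost the call with at least 1 library left out. KCNG2 was tested in only 3 of the 6 fits with a library left out, so its call could not be lost in the rest. Those 3 fits left out a DM library, and the dependence of its call on a single GM library was not tested. In 6 tested members (KCNG2, KCNK13, KCNAB2, KCNIP1, CACNA1H and ANO7) the mean of the lower stage was itself under 0.5 FPKM, so they entered the test through the stage in which they were higher.

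**Figure D2:**
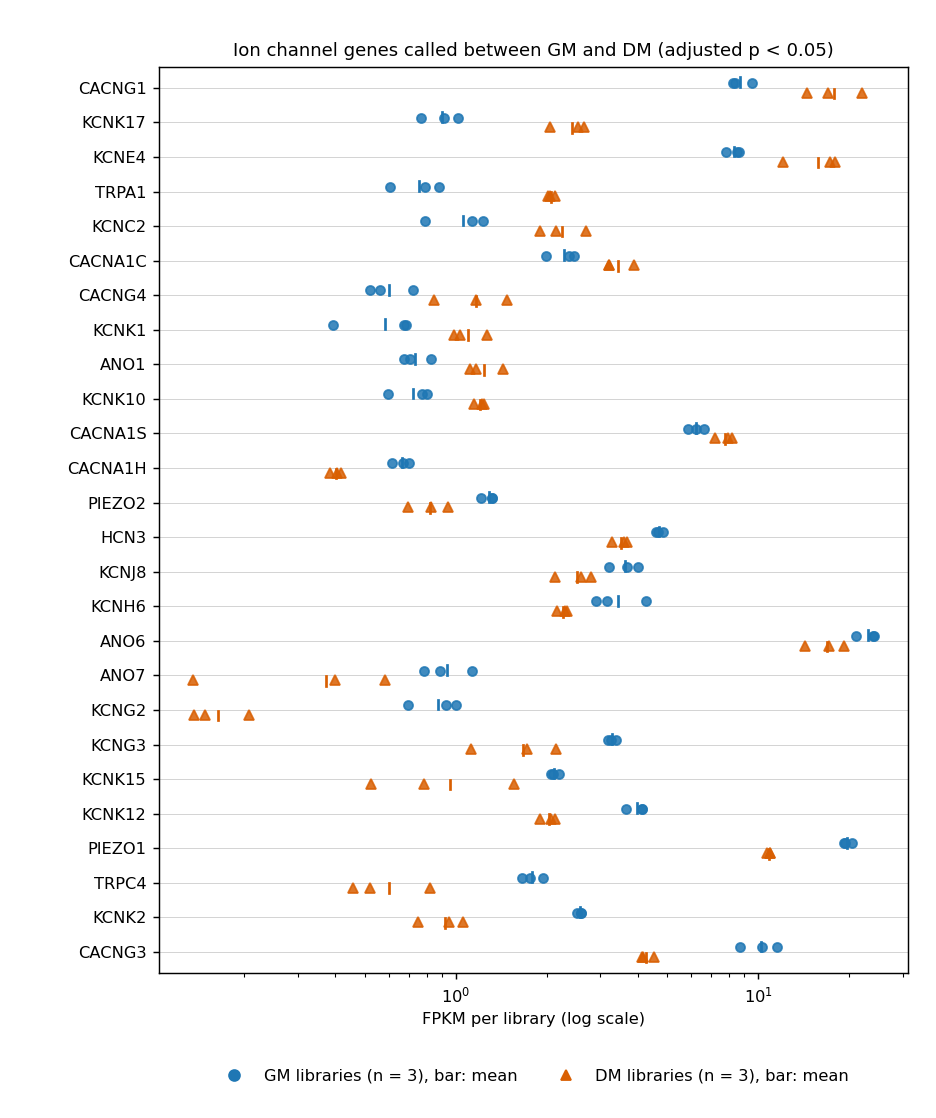
FPKM per library (log axis) of the 26 called ion channel genes, ordered by log2 fold change. Circles are the 3 GM and triangles the 3 DM libraries, and short bars are the stage means. The genes were chosen by the call on these same values, which favors separate stages. The lack of overlap in the 26 is therefore no separate result, and it was not counted over all called genes. The highest values are in ANO6 (up to 24.1 FPKM) and the lowest in ANO7 (down to 0.135 FPKM).

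The state of the cultures was read from marker genes. Of the skeletal muscle markers, 9 of 11 were found and tested, with 1 called higher and 4 lower in DM. The 4 were MYF5, PAX7, MYOD1 and ACTC1 (log2 fold change of ACTC1 -0.43, limma adjusted p = 0.00729). MYF5 and PAX7, markers of undifferentiated myoblasts, fell (log2 fold changes -2.23 and -1.53), MYH15, a myosin heavy chain, rose by 1.14 on the log2 scale, and MYOD1 fell by 1.23. MYOG, a factor of early differentiation, had means of 26.3 FPKM in GM and 19.1 FPKM in DM and was not called (limma adjusted p = 0.0528), nor were ACTA1, TNNT2 and TNNT3. Markers of other cells also moved. Of 6 fibroblast markers found, 5 rose, and their summed level was 1999 to 2030 FPKM in GM and 4218 to 4496 FPKM in DM. Of 3 smooth muscle markers found, 2 fell, with sums of 437 to 472 FPKM in GM and 202 to 292 FPKM in DM. ACTA2 made up nearly all of these sums. The third marker, MYH11, was higher in every DM library, with means of 1.11 FPKM in GM and 1.38 FPKM in DM. It was not called (limma adjusted p = 0.137). The 5 endothelium markers summed to 2.50 to 2.66 FPKM in GM and 1.28 to 1.36 FPKM in DM, with 1 tested and called lower, and KDR was listed at 0.0001 FPKM in DM_1 and DM_2. The 3 Schwann cell markers found summed to 2.57 to 3.27 FPKM in GM and 1.32 to 1.74 FPKM in DM, with 1 of 2 tested called lower. The 6 neuron markers found summed to 0.829 to 1.83 FPKM in GM and 1.60 to 1.77 FPKM in DM, with 1 of 2 tested called higher, while STMN2 was above 0.0001 FPKM in GM_1 alone and NEFM in GM_2 alone. The 4 macrophage markers found summed to 14.2 to 21.6 FPKM in GM and 18.2 to 26.3 FPKM in DM, with 1 called lower. In no list was a found marker at 0.0001 FPKM in all 6 libraries. The part of other cells in the channel results was not tested, and in bulk RNA fewer cells of a type and less RNA per cell cannot be told apart.

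Potassium channels and their subunits made up 72 of the members, of which 28 were tested, 5 called higher and 7 lower in DM. The counts of called genes in this and the following roles stand beside 30.3% called over all tested genes. For unadjusted p under 0.05 the share over all tested genes was not counted, and it cannot be below that 30.3%. The K2P genes, which carry the background potassium current of resting cells, had 6 of 8 tested genes called, 3 in each direction. In an alternative fit with the replicate number as a block, 3 of the 8 were called, where 24.7% of all tested genes were. KCNK2, which encodes the stretch-sensitive channel TREK-1, had 2.52, 2.59 and 2.60 FPKM in GM and 0.749, 0.946 and 1.06 FPKM in DM. All GM values lay above all DM values, and the 3 GM libraries differed little from each other. The gene fell, with a log2 fold change of -0.90 (SE 0.08, limma adjusted p = 0.00116). KCNK12, whose protein stays largely silent when made alone in cultured cells, had 4.12, 3.65 and 4.13 FPKM in GM and 1.89, 2.13 and 2.06 FPKM in DM. It was likewise higher in every GM library and fell, with a log2 fold change of -0.71 (SE 0.08, limma adjusted p = 0.00194). KCNK15, another K2P subunit without a current of its own, had 2.10, 2.06 and 2.18 FPKM in GM and 0.525, 0.784 and 1.56 FPKM in DM. The DM libraries were spread, with DM_3 nearest to GM, and the call (log2 fold change -0.71, SE 0.19, limma adjusted p = 0.0356) was lost without DM_2 (adjusted p = 0.103) and in 5 of the 6 fits that left out a library. KCNK17, a channel opened by alkaline pH outside the cell, moved the other way and had 0.911, 1.02 and 0.769 FPKM in GM and 2.54, 2.66 and 2.05 FPKM in DM. Every DM library was higher than every GM library, and the gene rose, with a log2 fold change of 0.85 (SE 0.10, limma adjusted p = 0.00219).

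KCNK10, close kin of KCNK2, and KCNK1, a weakly rectifying K2P channel, rose by less (log2 fold changes 0.35 and 0.41, limma adjusted p = 0.0164 and 0.0304). KCNK10 kept its call in 5 of the 6 fits with a library left out and KCNK1 in 0 of 6. They belong to 8 called members with smaller changes that the naming rule leaves out and that are named after their values were seen, to complete the count of 26. KCNK10 thus stood on the opposite side from its kin KCNK2, at 0.598, 0.770 and 0.802 FPKM in GM and 1.24, 1.22 and 1.15 FPKM in DM. KCNK5, a K2P channel sensitive to pH and cell volume, had the highest level of the K2P genes, with 4.47, 5.49 and 7.88 FPKM in GM and 2.86, 9.05 and 8.27 FPKM in DM. Values spread within both stages, GM_1 and DM_1 being the lowest of their stages, the stages overlapped, and the gene was not called (log2 fold change 0.06, SE 0.40, limma adjusted p = 0.917). Its sign turned when GM_1, DM_2 or DM_3 was left out.

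Voltage-gated potassium channel genes formed the largest role, with 30 members of which 7 were tested, 1 called higher and 3 lower in DM. KCNG subunits make no channel alone and modify the delayed rectifier channels that they join. KCNG3 had 3.27, 3.38 and 3.19 FPKM in GM and 2.15, 1.72 and 1.12 FPKM in DM. GM values were close together and DM values were spread below them, with DM_3 lowest, and the gene fell, with a log2 fold change of -0.70 (SE 0.15, limma adjusted p = 0.0174). The call was lost in 4 of the 6 fits with a library left out, with an adjusted p of up to 0.0570. KCNG2 had 0.925, 0.692 and 1.002 FPKM in GM and 0.136, 0.207 and 0.148 FPKM in DM, so that each DM value was far below each GM value. It fell, with a log2 fold change of -0.68 (SE 0.08, limma adjusted p = 0.00228), and the GM mean was 5.34 times the DM mean. The call of KCNG2 held in the 3 fits with a library left out that tested it, each of which left out a DM library. KCNC2, a fast delayed rectifier, had 1.13, 0.792 and 1.23 FPKM in GM and 2.70, 1.90 and 2.15 FPKM in DM. All DM libraries were higher, and the gene rose, with a log2 fold change of 0.66 (SE 0.13, limma adjusted p = 0.0131).

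KCNH6, of the ERG family, had the highest level of the role, with 4.25, 2.91 and 3.16 FPKM in GM and 2.16, 2.34 and 2.29 FPKM in DM. GM_1 stood above the other GM libraries, the stages did not overlap, and KCNH6 fell, with a log2 fold change of -0.43 (SE 0.13, limma adjusted p = 0.0447). This call held in 1 of the 6 fits with a library left out. KCNH1, the channel known from human myoblast fusion, was not tested and lay between 0.0461 and 0.2003 FPKM in the 6 libraries. It is named outside the rule for that role, and its stages overlapped.

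Of 13 inward rectifier genes 4 were tested and 1 was called. KCNJ2, the inward rectifier known for its role before fusion in human myoblasts, had 4.74, 4.69 and 4.79 FPKM in GM and 5.10, 5.14 and 5.26 FPKM in DM. The values were tightly grouped, and the DM libraries were all slightly higher, by 1.09 times on average. That difference was not called (log2 fold change 0.10, SE 0.07, limma adjusted p = 0.284). KCNJ8, which encodes the pore of an ATP-sensitive channel, fell (log2 fold change -0.40, SE 0.11, limma adjusted p = 0.0405) from 3.63 ± 0.403 FPKM to 2.51 ± 0.345 FPKM (SD, n = 3 each). KCNJ8 kept its call in 1 of the 6 fits with a library left out. The joined row of KCNJ11, the other pore gene of that channel, and PIK3C2A was not called (log2 fold change 0.36, SE 0.12, limma adjusted p = 0.0707).

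Among the channels opened by calcium or sodium inside the cell, 4 of 6 were tested and 0 called by limma. Of the tested genes KCNN2 had an unadjusted p under 0.05, with a limma adjusted p = 0.0697. KCNN3, a small-conductance calcium-activated channel, had 7.03, 6.43 and 4.69 FPKM in GM and 6.42, 3.05 and 3.26 FPKM in DM. DM_1 lay within the GM range while DM_2 and DM_3 lay below it, and the difference was not called (log2 fold change -0.47, SE 0.26, limma adjusted p = 0.227). KCNMA1, the pore of the large-conductance channel, had a mean of 4.21 ± 0.446 FPKM in GM and 3.74 ± 0.312 FPKM in DM (SD, n = 3 each) and was not called.

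Auxiliary subunits of potassium channels had 5 of 12 members tested and 1 called. KCNE4, which damps the current of several voltage-gated potassium channels, was the highest of all potassium channel genes, with 7.80, 8.53 and 8.63 FPKM in GM and 12.0, 18.0 and 17.3 FPKM in DM. DM_1 was the lowest DM library and still above every GM library. KCNE4 rose, with a log2 fold change of 0.83 (SE 0.15, limma adjusted p = 0.0106), and with 1 library left out its log2 fold change stayed between 0.73 and 1.0. The summed level of the auxiliary subunits was 14.05 to 16.1 FPKM in GM and 17.4 to 22.7 FPKM in DM, of which KCNE4 made up the larger part.

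**Figure D3:**
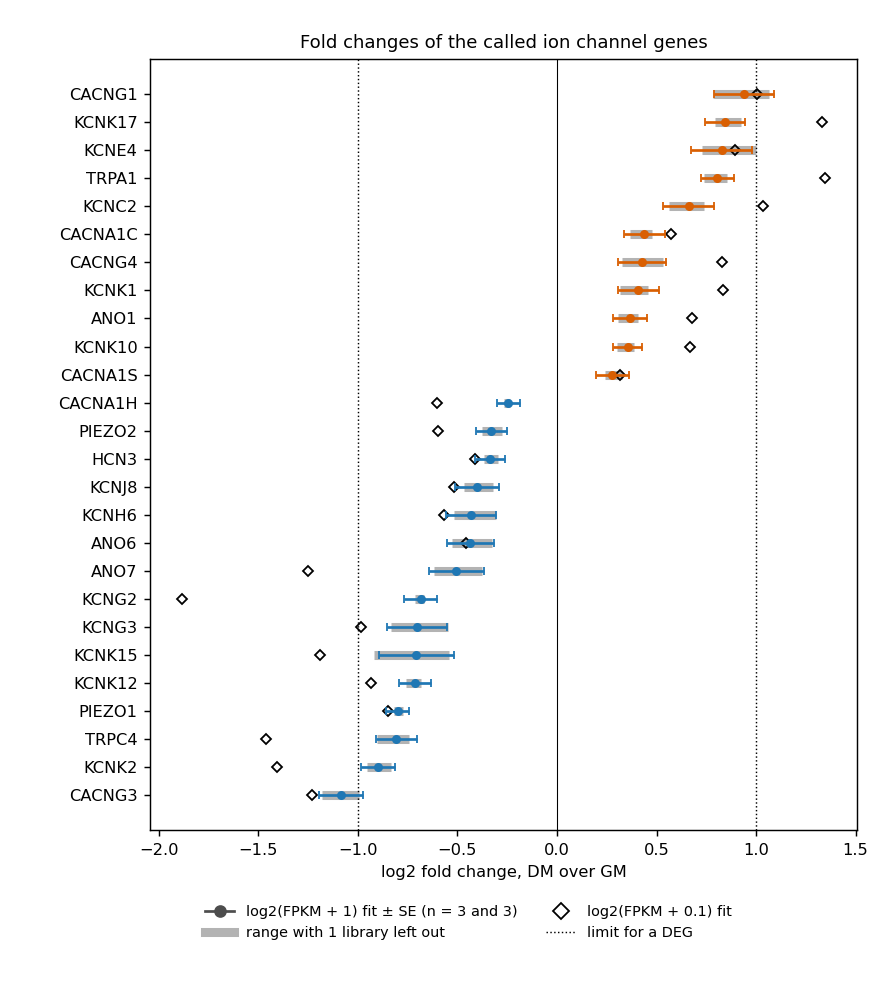
Log2 fold change (DM over GM) of the 26 called ion channel genes. Filled points with error bars are the log2(FPKM + 1) fit and its standard error, grey bars the range with 1 library left out, open diamonds the fit with 0.1 added in place of 1, and dotted lines the limit of 1. CACNG3 lies beyond the limit at -1.08, and KCNG2 moves from -0.68 to -1.88 with the smaller pseudocount.

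Of 8 pore subunits of calcium channels 4 were tested and 3 were called, 2 higher and 1 lower, and CACNA1E, the other tested one, was not called (limma adjusted p = 0.0543). CACNA1S, the voltage sensor of the T-tubule that couples excitation to the calcium store, had 5.84, 6.21 and 6.60 FPKM in GM and 8.16, 7.19 and 7.93 FPKM in DM. All DM libraries were higher than all GM libraries by a small margin, and the gene rose, with a log2 fold change of 0.28 (SE 0.08, limma adjusted p = 0.0451). The call did not hold in any of the 6 fits with a library left out, where the adjusted p reached 0.129. CACNA1C, the pore of the cardiac and smooth muscle L-type channel, rose (log2 fold change 0.44, SE 0.10, limma adjusted p = 0.0238) from 2.27 ± 0.253 FPKM to 3.44 ± 0.389 FPKM (SD, n = 3 each), a call held in 3 of those 6 fits. CACNA1H, a T-type channel, fell (log2 fold change -0.24, SE 0.06, limma adjusted p = 0.0232) from 0.661 ± 0.0428 FPKM to 0.402 ± 0.0169 FPKM (SD, n = 3 each), a call held in 2 of the 5 fits that tested it with a library left out. Its kin CACNA1G, named after its values were seen, was below the limit for testing, with 0.367, 0.269 and 0.278 FPKM in GM and 0.602, 0.597 and 0.486 FPKM in DM, and stood higher in every DM library.

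The gamma subunits had 3 of 4 tested genes called, 2 higher and 1 lower, and CACNG3 and CACNG1 had the smallest adjusted p-values of the calcium channel genes. CACNG1, the gamma subunit of the skeletal muscle L-type channel, had 8.38, 9.51 and 8.28 FPKM in GM and 21.96, 14.5 and 17.01 FPKM in DM. DM_1 was the highest library, and the lowest DM library, DM_2, still stood clear of every GM library. CACNG1 rose, with a log2 fold change of 0.94 (SE 0.15, limma adjusted p = 0.00650), with a mean in DM of 2.04 times that in GM. CACNG3, best known in neurons as a partner of AMPA-type glutamate receptors, had 8.69, 10.3 and 11.6 FPKM in GM and 4.11, 4.51 and 4.15 FPKM in DM. Every GM library was higher than every DM library by more than the spread within either stage. CACNG3 was the single DEG among the tested members and fell, with a log2 fold change of -1.08 (SE 0.11, limma adjusted p = 0.00142). Without GM_3 its log2 fold change was -0.995, just short of the limit on the fold change. CACNG4, of the same branch as CACNG3, rose (log2 fold change 0.43, SE 0.12, limma adjusted p = 0.0431) from 0.601 ± 0.108 FPKM to 1.16 ± 0.312 FPKM (SD, n = 3 each) and kept its call in 1 of the 6 fits with a library left out. CACNG3 was thus the higher of the pair in GM on average (10.2 against 8.72 FPKM) and CACNG1 in DM (17.8 against 4.25 FPKM).

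The alpha2delta and beta subunits, which bring the pore to the membrane and set its gating, had 3 of 5 members tested, 0 called by limma and 0 with an unadjusted p under 0.05. CACNA2D1 had 2.74, 3.36 and 4.13 FPKM in GM and 4.70, 3.69 and 4.99 FPKM in DM. The stages overlapped, and the difference was not called (log2 fold change 0.31, SE 0.15, limma adjusted p = 0.171). CACNB2 had 1.91, 0.954 and 1.85 FPKM in GM and 2.10, 0.536 and 1.99 FPKM in DM. GM_2 and DM_2 were the lowest libraries of their stages, and the difference was not called (log2 fold change -0.06, SE 0.31, limma adjusted p = 0.889).

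Of 6 sodium channel members 2 were tested, with 0 called by limma and 0 at an unadjusted p under 0.05. SCN8A, a pore gene known mainly from nerve, had 1.77, 1.66 and 1.87 FPKM in GM and 2.34, 2.01 and 1.71 FPKM in DM. DM_3 lay within the GM range, and the difference was not called (log2 fold change 0.12, SE 0.10, limma adjusted p = 0.390). SCN4A, the pore of the sodium channel of adult skeletal muscle, is named after its values were seen, for that role. It was below the limit for testing in these cultures, at 0.105, 0.0830 and 0.167 FPKM in GM and 0.214, 0.113 and 0.155 FPKM in DM, and the stages overlapped.

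Chloride channel and transporter genes had 4 of 6 members tested, with 0 called by limma and 0 at an unadjusted p under 0.05, and their summed level was 37.6 to 41.1 FPKM in GM and 37.8 to 40.3 FPKM in DM. CLCN7, a chloride-proton exchanger of the lysosome, had 14.3, 14.8 and 15.0 FPKM in GM and 13.9, 13.9 and 13.9 FPKM in DM. DM libraries lay just under the GM libraries, by less than 1 FPKM on average, and the difference was not called (log2 fold change -0.08, SE 0.06, limma adjusted p = 0.330). CLCN6 and CLCN3, exchangers of endosomes, had means of 10.8 and 9.38 FPKM over the 6 libraries. CLCN1, the chloride channel of the mature muscle membrane and likewise named after its values were seen, had 0.0899, 0.0111 and 0.0108 FPKM in GM and 0.0749, 0.334 and 0.0317 FPKM in DM. DM_2 stood apart, the stages overlapped, and the gene was not tested.

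TRP genes had 5 of 15 members tested, with 1 called in each direction. TRPC4, a channel known for calcium entry in human myoblasts, had 1.76, 1.95 and 1.65 FPKM in GM and 0.819, 0.522 and 0.458 FPKM in DM. Every GM value was above every DM value, and the gene fell, with a log2 fold change of -0.81 (SE 0.11, limma adjusted p = 0.00310). TRPC1, known from the same entry pathway, was measured at a higher level, and its DM values lay within the GM range, with 10.7 ± 0.869 FPKM in GM and 10.2 ± 0.165 FPKM in DM (SD, n = 3 each). It was not called (log2 fold change -0.06, SE 0.08, limma adjusted p = 0.598). TRPA1, the channel opened by irritants in sensory neurons, had 0.606, 0.879 and 0.790 FPKM in GM and 2.14, 2.02 and 2.04 FPKM in DM. The DM libraries were close together and all higher, and the gene rose, with a log2 fold change of 0.80 (SE 0.08, limma adjusted p = 0.00149). TRPC4AP, the binding partner that fits the rule by its name, had 13.6, 14.4 and 7.43 FPKM in GM and 11.6, 8.52 and 8.73 FPKM in DM. GM_3 was lower than the other GM libraries, and the difference was not called (log2 fold change -0.23, SE 0.25, limma adjusted p = 0.522).

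PIEZO1 gave the smallest adjusted p of the members. It encodes the stretch-activated cation channel that acts in the shaping and fusion of mouse myotubes. The libraries had 20.4, 19.2 and 19.3 FPKM in GM and 10.7, 10.9 and 10.9 FPKM in DM. GM and DM libraries each lay close together and far from the other stage, and DM levels were 0.552 times GM levels on average. PIEZO1 fell, with a log2 fold change of -0.80 (SE 0.06, limma adjusted p = 0.000441), and the fits with 1 library left out gave log2 fold changes from -0.82 to -0.77. PIEZO2, known from touch receptors, also fell (log2 fold change -0.33, SE 0.08, limma adjusted p = 0.0238), from 1.28 ± 0.0613 FPKM to 0.821 ± 0.125 FPKM (SD, n = 3 each). Its call held in 1 of the 6 fits with a library left out.

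Of 10 anoctamins 6 were tested, 1 called higher and 2 lower. ANO6, a calcium-activated lipid scramblase, had the highest level of all members, with 23.9, 24.1 and 21.0 FPKM in GM and 19.1, 14.3 and 17.2 FPKM in DM. DM_2 was the lowest, the stages did not overlap, and ANO6 fell, with a log2 fold change of -0.43 (SE 0.12, limma adjusted p = 0.0370). This call held in 1 of the 6 fits with a library left out. ANO7 had 0.787, 1.13 and 0.885 FPKM in GM and 0.397, 0.135 and 0.582 FPKM in DM, spread within DM, and fell (log2 fold change -0.51, SE 0.14, limma adjusted p = 0.0387), a call that also held in 1 of those fits. ANO1, a calcium-activated chloride channel, rose (log2 fold change 0.37, SE 0.08, limma adjusted p = 0.0214) from 0.734 ± 0.0811 FPKM to 1.24 ± 0.173 FPKM (SD, n = 3 each), a call held in 4 of the 6 fits. ANO5, a gene of muscular dystrophy in humans, had 4.33 ± 0.438 FPKM in GM and 3.90 ± 0.159 FPKM in DM (SD, n = 3 each) and was not called.

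HCN3, a channel opened by hyperpolarization, was the tested gene among 3 HCN members and had 4.60, 4.85 and 4.67 FPKM in GM and 3.28, 3.69 and 3.59 FPKM in DM. GM values were all higher, and HCN3 fell, with a log2 fold change of -0.34 (SE 0.08, limma adjusted p = 0.0204), a call held in 3 of the 6 fits with a library left out. P2RX6, a subunit of channels opened by ATP, had 2.26, 2.05 and 2.52 FPKM in GM and 2.63, 2.13 and 2.66 FPKM in DM. Stages overlapped in P2RX6, which was not called (log2 fold change 0.08, SE 0.10, limma adjusted p = 0.568). The joined row of P2RX5, the other P2X row tested, was not called either (log2 fold change -0.09, SE 0.19, limma adjusted p = 0.750).

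Nicotinic receptor genes had 3 of 12 members tested and 0 called by limma. Of the 3, 2 had an unadjusted p under 0.05. The share over all tested genes was not counted and cannot be below 30.3%, so no excess can be read from these 3 genes. CHRNA1, which encodes the subunit of the muscle receptor that binds acetylcholine, had 9.78, 8.63 and 6.60 FPKM in GM and 9.66, 10.6 and 7.21 FPKM in DM. The stages overlapped almost fully, and the difference was not called (log2 fold change 0.12, SE 0.18, limma adjusted p = 0.648). CHRND and CHRNG, the delta and the embryonic gamma subunit of the same receptor, share a row with 7.32, 9.87 and 9.85 FPKM in GM and 6.67, 6.91 and 7.08 FPKM in DM. GM_1 was close to the DM libraries, and the difference was not called (log2 fold change -0.33, SE 0.12, limma adjusted p = 0.0833). CHRNB2, a subunit known mainly from neurons, had 5.39, 6.38 and 6.49 FPKM in GM and 7.23, 7.57 and 7.93 FPKM in DM. The DM libraries were all higher, and the difference was just short of a call (log2 fold change 0.28, SE 0.09, limma adjusted p = 0.0602). CHRNB2 and the joined row of CHRND and CHRNG lie outside the naming rule and are named after their values were seen.

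The 84 members under 0.5 FPKM were not tested, and 40 of them were listed at 0.0001 FPKM in at least 1 library. As a description, 6 of the 84 (7.14%) had at least 0.2 FPKM in the higher stage, stage means more than 4 times apart and no overlap, which held for 4.43% of all 3902 untested genes. Of these 6, 5 were lower in DM and 1 higher, where 3.10% and 1.33% of the untested genes were. KCNG1, of the same family of silent subunits as KCNG2 and KCNG3, had 0.898, 0.912 and 0.742 FPKM in GM and 0.0914, 0.215 and 0.0978 FPKM in DM. All GM values were above all DM values, and at a mean of 0.493 FPKM KCNG1 lay just under the limit. KCNT1, a sodium-activated potassium channel, had 0.488, 0.456 and 0.496 FPKM in GM and 0.0628, 0.0606 and 0.0001 FPKM in DM. KCNMB4, a beta subunit of the large-conductance channel, had 0.457, 0.531 and 0.974 FPKM in GM and 0.0001, 0.0999 and 0.209 FPKM in DM. Each was higher in every GM library and listed at 0.0001 FPKM in 1 DM library. SCN2B, a sodium channel beta subunit, had 0.302, 0.655 and 0.622 FPKM in GM and 0.220, 0.0001 and 0.0746 FPKM in DM. CHRNA2, a nicotinic alpha subunit, had 0.290, 0.271 and 0.1001 FPKM in GM and 0.0001, 0.0433 and 0.0001 FPKM in DM. Both were lower in DM, where SCN2B was at 0.0001 FPKM in DM_2 and CHRNA2 in DM_1 and DM_3. KCNJ16, an inward rectifier subunit known from kidney, went the other way with 0.0171, 0.0184 and 0.0001 FPKM in GM and 0.285, 0.296 and 0.181 FPKM in DM. The study, which used edgeR, lists KCNJ16 among its top up-regulated genes, whereas here KCNJ16 lay under the limit and could not be a DEG. In a fit with no limit on the level and 0.1 added in place of 1, 13 of the 84 (15.5%) were called, 4 higher and 9 lower in DM, where 12.8% of all 3902 untested genes were called, 3.13% higher and 9.71% lower. Of the 6 genes, KCNG1, KCNT1, KCNJ16 and CHRNA2 were among the 13, whereas KCNMB4 and SCN2B were not.

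**Figure D4:**
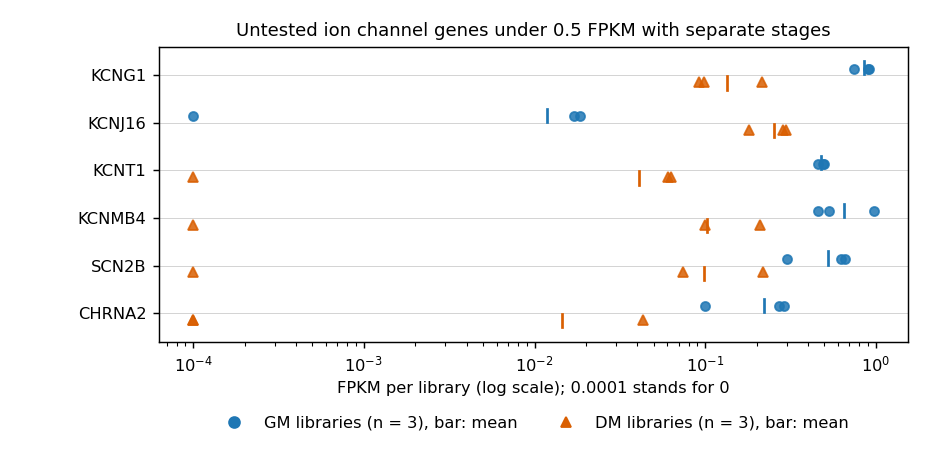
FPKM per library (log axis, 0.0001 in place of 0) of 6 ion channel genes under the limit of 0.5 FPKM whose stages do not overlap and whose stage means are more than 4 times apart. Circles are the 3 GM and triangles the 3 DM libraries, and short bars are the stage means. KCNJ16 is higher in DM and the other 5 are lower.

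Channels act with pumps, the calcium store and the synapse, and 62 further genes of these parts were listed by hand, of which 45 were found and 36 tested. The lists were chosen with earlier results of these data known, so their shares of called genes and DEGs do not test for an excess over all genes. Of the 36, 23 were called, 13 higher and 10 lower in DM, where 30.3% of all tested genes were called. The list of the calcium store and of excitation-contraction coupling held 4 DEGs among 18 tested genes, all higher in DM. Of all tested genes 4.02% were DEGs. TRDN, which anchors calsequestrin at the release channel, had 0.715, 0.880 and 1.18 FPKM in GM and 5.25, 4.41 and 4.75 FPKM in DM and rose, with a log2 fold change of 1.60 (SE 0.12, limma adjusted p = 0.000455). SLN, an inhibitor of the calcium pump, had 2.22, 2.36 and 1.88 FPKM in GM and 13.9, 13.98 and 13.02 FPKM in DM, all DM values being far above GM, and rose, with a log2 fold change of 2.22 (SE 0.09, limma adjusted p = 0.000103). CASQ2, a calsequestrin that binds calcium in the store, had 22.2, 24.7 and 24.9 FPKM in GM and 50.3, 47.7 and 50.3 FPKM in DM and rose, with a log2 fold change of 1.02 (SE 0.07, limma adjusted p = 0.000341). RYR3, a calcium release channel, had 0.213, 0.176 and 0.118 FPKM in GM and 2.02, 1.38 and 1.14 FPKM in DM and rose, with a log2 fold change of 1.09 (SE 0.13, limma adjusted p = 0.00238). In that list 9 of 18 tested genes were called higher and 3 lower, and the summed level was 209.8 to 226.3 FPKM in GM and 300.1 to 310.9 FPKM in DM. A single gene, FKBP1A, named after its values were seen, made up the largest part of these sums. It had 118.7, 126.1 and 131.1 FPKM in GM and 159.7, 162.8 and 157.3 FPKM in DM. Beside the genes of this list, the voltage sensor CACNA1S stood in DM at 1.25 times its GM level.

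Of the pumps and exchangers 8 of 9 tested genes were called, 3 higher and 5 lower, and of the store-operated entry genes 1 of 3 was called, STIM1, lower in DM. Of the neuromuscular junction genes 2 of 6 were called, MUSK, the receptor kinase that gathers nicotinic receptors, higher and AGRN, which activates it through a co-receptor, lower. The counts in these lists stand beside 30.3% called over all tested genes, 14.7% higher and 15.5% lower. MUSK, AGRN and STIM1 are named after their values were seen. The sodium-calcium exchangers SLC8A1 and SLC8A3, chosen in the same way, rose with log2 fold changes of 0.88 and 0.79 (limma adjusted p = 0.000626 and 0.00227).

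**Figure D5:**
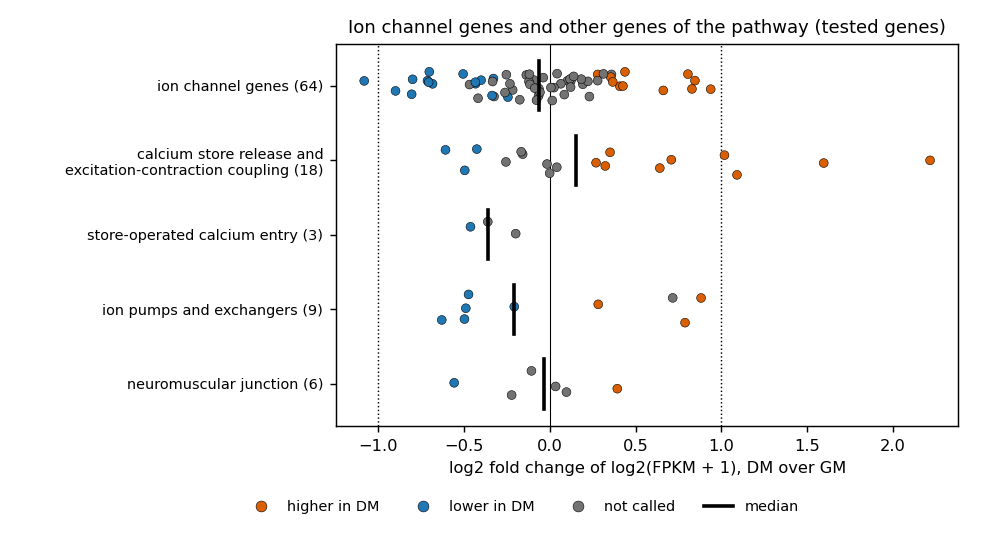
Log2 fold change (DM over GM) of the tested ion channel genes and of 4 hand-written lists of partner genes, each point a gene, with the number of tested genes in parentheses and the median as a bar. Colors give the limma call, and dotted lines mark the limit of 1. The medians are -0.07 for the 64 channel genes and 0.15 for the 18 genes of the calcium store and coupling, where SLN reaches 2.22.

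The loci of the members also gave noncoding transcripts. The authors' table of 14993 newly assembled lncRNA transcripts names a member at the position of 56 transcripts, from 32 genes, 51 of them within introns, 3 overlapping exons on the same strand and 2 antisense. Of the 43 with a mean of at least 0.5 FPKM, 0 were called by limma at an adjusted p under 0.05, and 12 had an unadjusted p under 0.05, whereas 3.62% and 25.8% of all 12988 tested transcripts did. KCNT2 held 9 of the 56 and KCNMA1 and ANO1 5 each. The transcript in an intron of TRPC4, chosen after its values were seen because its host fell, had 1.15, 1.14 and 1.06 FPKM in GM and 0.512, 0.181 and 0.134 FPKM in DM. It was higher in each GM library, as TRPC4 was, but was not called (log2 fold change -0.74, SE 0.21, limma adjusted p = 0.0897). Of the 5 transcripts within KCNMA1, whose own level was not called, 3 had no overlap between stages and were higher in GM, as 25% of all tested transcripts were, with limma adjusted p-values from 0.0807 to 0.115. Reads of unspliced host RNA and of such transcripts were not told apart here. With quantile normalization 2 of the 43 were called, 1 in ANO1 and 1 in KCNT2, both higher in DM, and 4.14% of all tested transcripts were.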

How the data were processed

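Per the study's methods, the authors trimmed reads with cutadapt, checked them with FastQC and mapped them to the GooseV1.0 assembly with Bowtie2, whereas the submitters' processing notes list HISAT2 and TopHat, so the mapper is uncertain. Transcripts were assembled and merged with StringTie, and FPKM were estimated with StringTie and Ballgown. The deposited values are FPKM per gene and per newly assembled lncRNA transcript. The tables hold no read counts, and the library totals that the study gives were not used here, so no counting interval is given for any value. Columns of the authors' own edgeR comparison (fold changes and p-values) were not used.

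From these values, limma 3.58.1 in R 4.3.3 (lmFit and eBayes with a trend) compared DM with GM on log2(FPKM + 1), for genes whose mean over the libraries reached 0.5 FPKM, with Benjamini-Hochberg adjustment over all tested genes. This replaces the authors' edgeR test, which needs counts. An exact permutation test of 3 against 3 libraries cannot give p below 0.1 and was not used. On simulated data with 200 changed genes among 10403, 60% of 2-fold changes were recovered (76.5% at 5 FPKM or more and 44.1% under it), and among 10388 genes 85% of 4-fold changes. In the data a far larger share, 30.3% of tested genes, was called. The Benjamini-Hochberg limit depends on that share, so these rates do not give the recovery in the data.

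Values in every library were given for members called with a log2 fold change beyond 0.5, the highest member of each role with a tested gene, untested members that reached 0.2 FPKM in 1 stage, with stage means more than 4 times apart and no overlap, and partner genes that were DEGs. Other genes with such values are marked in the text as named or chosen after their values were seen. The members, the lists of partner and marker genes and this rule were chosen with earlier results of these data known. Of 148 symbols, 142 were matched in the RefSeq table of another goose assembly, which was used for names alone. Alternatives were a pseudocount of 0.1, no limit or a limit of 2 FPKM on the mean, quantile normalization, the replicate number as a block and leaving out each library.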

Additional observations from a re-analysis of the deposited data

How the results depend on the processing

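The count of 26 called members (40.6% of those tested, against 30.3% of all tested genes) was 25 with a pseudocount of 0.1 (39.1% against 29.8%), 27 with quantile normalization (42.2% against 32.0%, 14 higher and 13 lower) and 12 with a limit of 2 FPKM (36.4% against 30.8%), where 33 members were tested and the 12 were all among the 26. With no limit on the mean it was 34 (23.0% against 23.7%), and 32 with a pseudocount of 0.1 as well (21.6% against 23.3%), so that the share of members was then no higher than that of all genes. In these fits genes under the limit make up more of the members than of all genes, so the shares are over sets of unlike level. Member DEGs numbered 9 of 64 (14.1%) with a pseudocount of 0.1, where 7.8% of all tested genes were DEGs. With no limit and a pseudocount of 0.1 they numbered 17 of 148 (11.5%), where 973 of 14283 genes were DEGs. Called lncRNA transcripts at member genes numbered 2 with quantile normalization. Leaving out 1 library gave 12 to 23 called members, 0 to 2 member DEGs (0 without GM_3, and 2 without DM_2, where CACNG1 joined CACNG3), 1970 to 3075 called genes of all tested, 16 to 21 called partner genes and 0 called lncRNA transcripts, and these fits have fewer samples. In these fits the sign of the log2 fold change turned for 10 of the 64 tested members, 0 of them called, namely KCNK5 (-0.19 to 0.50), CACNB2 (-0.25 to 0.26), CHRNA1 (-0.020 to 0.27), KCNV1 (-0.11 to 0.15), KCNQ1 (-0.19 to 0.0015), CLCN3 (-0.032 to 0.099), the joined row of CLCN4 (-0.085 to 0.061), TRPC1 (-0.103 to 0.0004), ANO10 (-0.015 to 0.107) and the joined row of P2RX5 (-0.292 to 0.036). With quantile normalization the sign of KCNC1, not called, turned to 0.012.

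GM and DM libraries with the same number showed correlations of their deviations of 0.03, 0.02 and -0.002. With 3 libraries per stage, these values cannot show whether libraries of the same number share more than the number. With the replicate number as a block, 16 members (25.0%) and 2565 of all tested genes (24.7%) were called, among them 3 of 8 K2P and 3 of 7 voltage-gated potassium channel genes. Not every library correlated best with its own number. The tables hold no counts, and for members under 1 FPKM the size of the fold changes depends on the constant added.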
